A study of Mus musculus with 7 samples.

Results

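Cytochrome P450 genes encode haem-containing monooxygenases, and 94 of the 50226 gene names with values in an RNA-Seq tissue profile of the mouse belong to them. A gene was included when its name is Cyp followed by a family number, a subfamily letter and a member number, as in Cyp2e1, and the 94 genes fall into 16 families and 39 subfamilies. Names that end in a further letter, such as Cyp4a12a, are not among the 94. Total RNA was taken from liver, kidney, visceral adipose tissue (VAT), subcutaneous adipose tissue (SCAT), interscapular brown adipose tissue (BAT), cortex and skeletal muscle, with 1 library per tissue. All 7 libraries are labelled as from wild-type (wt) C57BL/6 mice (C57BL/6N in the paper) of 36 weeks on the diet labelled NCD. Tissue is the factor that these labels give as different between them. Whether the tissues came from the same animals, or from pooled ones, is not given in the sources used here. The levels are FPKM, counts of sequenced fragments scaled for transcript length and for the size of the library. There were no replicates and no fragment counts, so no difference between tissues has a replicate check, and depth and precision are unknown.

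P450 enzymes sit in the endoplasmic reticulum or the inner mitochondrial membrane and insert an oxygen atom into fat-soluble substrates with electrons passed on by reductases and small electron carriers. Members of families 1 to 3 oxidise drugs and other foreign compounds, members of family 4 act on fatty acids and eicosanoids, and the remaining families make or break down steroids, bile acids, vitamin D and retinoic acid. The liver is known as the main site of drug oxidation and bile acid synthesis, and the kidney as a site of fatty acid and vitamin D hydroxylation.

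The upstream sequences of 6 genes that stand for the main tissue patterns are shown first. Cyp2a4 and Cyp2a5 are near-copies of the same cluster that differed in tissue, Cyp2e1 had the highest level of all 94 genes, and Cyp4b1, Cyp2b10 and Cyp46a1 had their highest levels in kidney, BAT and cortex. Each line gives the 250 bases before the start of the gene on its coding strand, 5′ to 3′, from RefSeq on GRCm38.p6. Capitals mark the letters TATAAA (known as the TATA box), GTTAAT (part of the site of HNF1) and AAAGTCC (core of the site of HNF4A), each searched on both strands.
Cyp2a4 (chr7:26306942-26307191, plus strand): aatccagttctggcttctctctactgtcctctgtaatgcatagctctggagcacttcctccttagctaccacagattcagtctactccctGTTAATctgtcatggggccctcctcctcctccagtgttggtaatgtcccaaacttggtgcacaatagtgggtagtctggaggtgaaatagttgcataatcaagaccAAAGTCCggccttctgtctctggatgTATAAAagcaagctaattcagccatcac
Cyp2a5 (chr7:26835089-26835338, plus strand): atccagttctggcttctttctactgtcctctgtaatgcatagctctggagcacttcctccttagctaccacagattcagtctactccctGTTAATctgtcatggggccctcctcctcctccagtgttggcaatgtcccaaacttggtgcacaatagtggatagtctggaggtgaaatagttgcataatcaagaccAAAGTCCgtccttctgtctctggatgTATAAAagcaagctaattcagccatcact
Cyp2e1 (chr7:140763569-140763818, plus strand): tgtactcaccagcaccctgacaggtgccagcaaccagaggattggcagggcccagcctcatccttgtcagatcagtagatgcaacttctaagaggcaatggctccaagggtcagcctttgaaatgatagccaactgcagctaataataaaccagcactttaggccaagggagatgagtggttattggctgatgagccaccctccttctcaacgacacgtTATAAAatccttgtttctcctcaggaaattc
Cyp4b1 (chr4:115647722-115647971, minus strand): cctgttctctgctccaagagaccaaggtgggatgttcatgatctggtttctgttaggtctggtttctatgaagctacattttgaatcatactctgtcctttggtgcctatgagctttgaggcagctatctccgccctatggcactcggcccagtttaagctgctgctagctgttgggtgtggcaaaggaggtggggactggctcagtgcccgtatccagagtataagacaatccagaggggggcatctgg
Cyp2b10 (chr7:25897408-25897657, plus strand): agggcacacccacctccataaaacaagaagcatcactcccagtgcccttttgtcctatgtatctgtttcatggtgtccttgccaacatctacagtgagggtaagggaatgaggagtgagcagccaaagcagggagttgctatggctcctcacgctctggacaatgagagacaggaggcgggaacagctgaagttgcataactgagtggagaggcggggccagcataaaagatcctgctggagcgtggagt
Cyp46a1 (chr12:108334066-108334315, plus strand): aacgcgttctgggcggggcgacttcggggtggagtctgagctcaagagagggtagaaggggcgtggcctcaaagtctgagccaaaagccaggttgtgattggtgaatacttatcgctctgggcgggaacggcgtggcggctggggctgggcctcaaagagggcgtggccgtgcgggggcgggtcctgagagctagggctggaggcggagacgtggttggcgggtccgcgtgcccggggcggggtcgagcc

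The upstream sequences of Cyp2a4 and Cyp2a5 were 97.6% identical, with 245 of 251 aligned columns the same. Both held TATAAA, 28 and 29 bases before the start, AAAGTCC 54 and 55 bases before it, and GTTAAT 160 and 161 bases before it. Cyp2e1 held TATAAA 31 bases before its start, and none of the searched letters was found in the windows of Cyp4b1, Cyp2b10 and Cyp46a1. RefSeq gave a window from 250 bases before to 50 bases after the start for 73 of the 94 genes. TATAAA was in the window of 31 of these 73 genes (42.5%), against 15.7% of all 27025 genes of the table. It was in 57.7% of the 26 liver-enriched genes with a window and in 34.0% of the other 47. AAAGTCC was in 20.5% of the 73 genes and 4.84% of all genes, and GTTAAT in 13.7% and 8.24%. TTGCGTG, the letters bound by the aryl hydrocarbon receptor, were in 0 of the 73 genes and 1.35% of all genes. None of these motifs overlaps another in its letters, and a match describes the sequence only.

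Of the 94 P450 genes, 64 reached 1 FPKM in at least 1 tissue, while 38.1% of all gene names did so. Liver had 53 such genes, VAT 38, kidney 32, SCAT and BAT 18 each, muscle 17 and cortex 12. Among all names the share per tissue was nearly even, 25.5% in liver, 26.2% in VAT, 26.2% in kidney, 25.6% in SCAT, 25.3% in BAT, 25.9% in muscle and 26.5% in cortex. The P450 genes were therefore spread unevenly over tissues, with 56.4% of them at 1 FPKM or more in liver and 12.8% in cortex. The other 30 genes stayed below 1 FPKM in every tissue, with a median highest level of 0.190 FPKM, and 2 of them, Cyp11b2 and Cyp2c66, were listed at 0 throughout. In such bulk tissue, fewer cells of a type and less RNA per cell cannot be told apart.

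**Figure D1:**
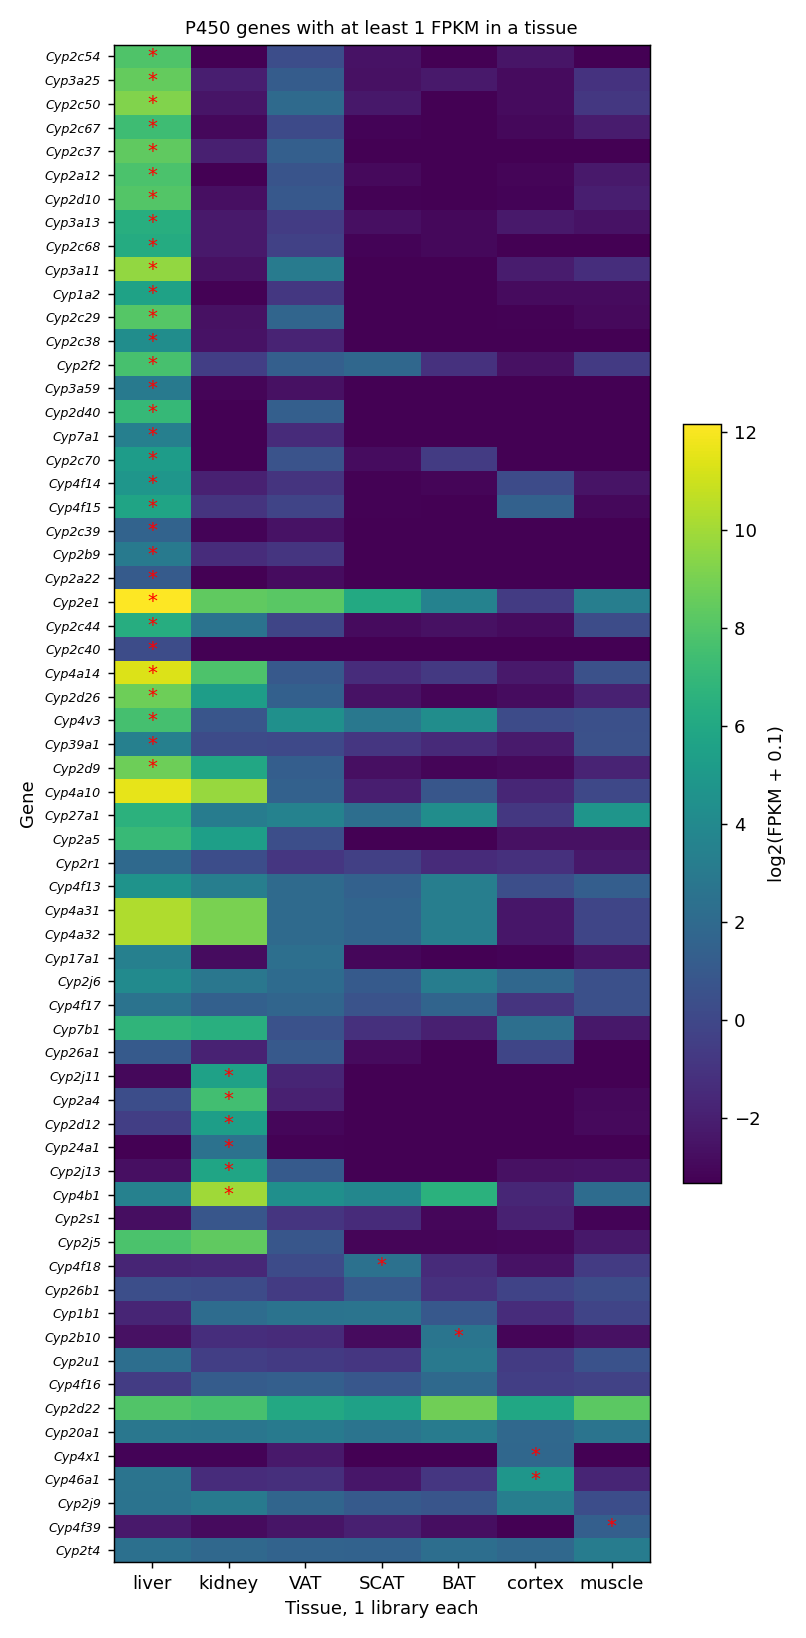
Levels of the 64 P450 genes with at least 1 FPKM in a tissue, as log2(FPKM + 0.1) in colour, with genes as rows and the 7 tissues (1 library each) as columns. Genes are grouped by the tissue of their highest level, and red asterisks mark the 42 genes enriched in a tissue, 31 of them in liver.

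Enrichment in a tissue meant a level of 1 FPKM or more and a lead of at least 2 in log2(FPKM + 0.1), which is 4-fold, on every other tissue. By this rule 42 of the 94 genes were enriched in a tissue, against 8.76% of all names. Liver held 31 of them, or 33.0% of the 94, and the share of all names enriched in liver was 1.45%. Among names with at least 1 FPKM in some tissue, 3.82% were enriched in liver. Kidney held 6 (0.97% of all names), cortex 2 (3.17%), SCAT 1 (1.02%), BAT 1 (0.297%), muscle 1 (1.38%) and VAT 0 (0.474%). The heatmap of the 64 genes shows the liver block as the largest, with 22 genes at 1 FPKM or more that were enriched nowhere.

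Whole-series checks bear on how these levels read. The marker genes of kidney tubule (4 of 4) and neurons (3 of 3, which mark the cortex as brain) were enriched in kidney and cortex, and Apoa1, Ttr and Fgb (3 of 5 hepatocyte markers) in liver, where Alb and Serpina1c have no usable value. Adipoq was at 330.2 FPKM in VAT, 258 in BAT and 109.6 in SCAT, Ucp1 at 6552 FPKM in BAT, and Ckm at 8592 FPKM in muscle. The muscle genes Ckm and Myh4 (at a locus shared with Myh8) also read 166 and 87.5 FPKM in BAT, and Myh4 has no usable value in muscle. All 3 epididymis markers were enriched in VAT, with a summed level of 2639 FPKM there and at most 1.99 FPKM elsewhere. SCAT held all 3 lymphocyte markers (89.5 FPKM summed, at most 2.80 elsewhere) and 3 of 4 pancreatic acinar markers. Xist stayed at or below 0.104 FPKM and Ddx3y was between 13.1 and 49.3 FPKM in all 7 libraries. The part of these other cells in the P450 levels of VAT, SCAT and BAT was not tested.

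The table also lists P450 genes at several loci, many of them on both strands of a region, with the strand inferred from the listing order. Some genes, such as Cyp2c39, have several loci on the same strand. Of the 94 genes, 52 had more than 1 locus, and the locus that reached the highest FPKM was taken, which lay on the annotated strand for 72 of the 93 genes with an annotation under their name. In 38 genes that reached 1 FPKM, the 2 highest loci with the gene's name alone lay on opposite strands, and the lower of them had a median of 34.9% of the first locus's level in its highest tissue (8.21% to 94.8%). The highest tissue was the same at both loci in 37 of the 38. With the highest such locus of each strand taken instead, a choice made after seeing the data, it was the same in 39 of 41 genes, and differed for Cyp26a1 and Cyp4f16. Of the 21 genes read from the strand opposite to the annotation, 15 reached 1 FPKM, and their level was a median of 2.00 times that on the annotated strand (1.11 to 8.45 times).

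The summed P450 level differed more between tissues than the number of genes. Over the highest locus of each gene that carries its name alone, the sum was 15981 FPKM in liver, 3399 in kidney, 439.8 in VAT, 203 in BAT, 134 in SCAT, 82.2 in muscle and 72.1 in cortex. Few genes made up most of each sum, and the 5 highest gave 73.4% of the liver sum and 81.4% of the kidney sum. Cyp4a gave 35.8% and Cyp2e 28.8% of the liver sum, followed by Cyp2c with 11.5%, Cyp2d with 7.92% and Cyp3a with 7.86%. In kidney Cyp4a gave 32.5%, Cyp4b 29.4% and Cyp2j 13.2%. The order of the first 2 subfamilies in both tissues depended on the strand. On annotated strands, joint loci included, Cyp2e led in liver with 34.9% ahead of Cyp4a with 29.5%, and Cyp4b led in kidney with 30.8% ahead of Cyp4a with 23.5%. Cyp2e1 alone gave 67.2% in VAT and 51.0% in SCAT, while Cyp4b1 gave 47.7% in BAT. Cyp46a1 gave 38.9% in cortex, ahead of Cyp2j with 19.3%, and Cyp27a1 gave 33.4% in muscle.

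**Figure D2:**
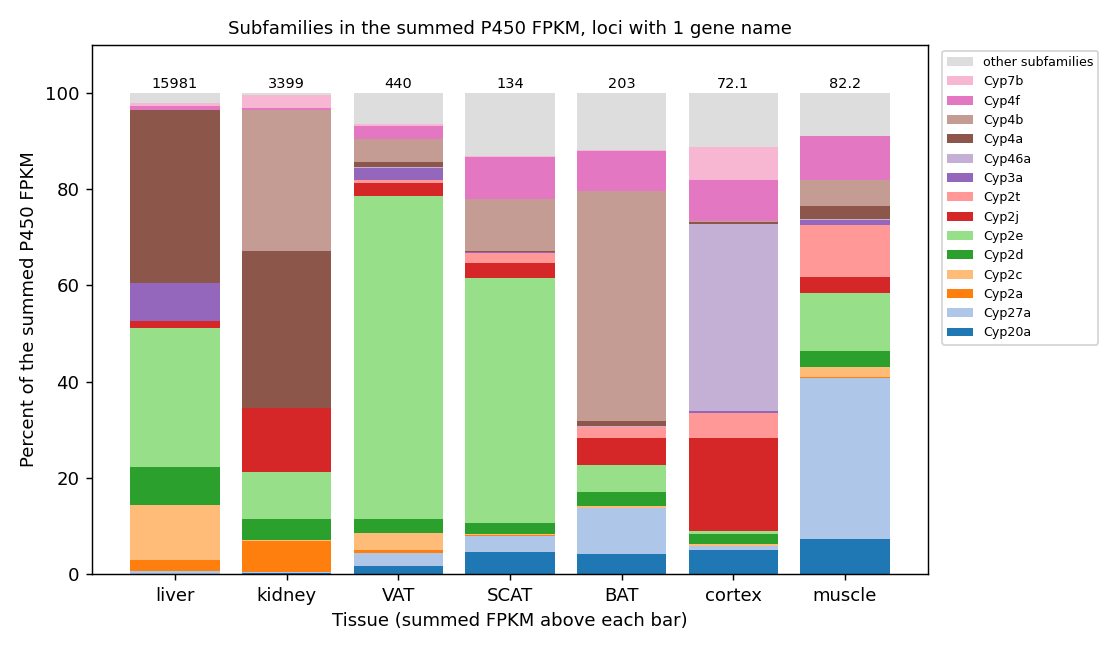
Share of each P450 subfamily (percent, stacked) in the summed P450 FPKM of each tissue, over the highest single-name locus of each gene, with the sum above each bar. Subfamilies with at least 5% in some tissue are coloured. Cyp2e leads in VAT and SCAT, Cyp4a in liver and kidney, Cyp4b in BAT, Cyp46a in cortex and Cyp27a in muscle, while on annotated strands Cyp2e leads in liver, Cyp4b in kidney, and Cyp2d, through the locus shared with Ndufa6, in BAT, cortex and muscle.

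These sums leave out loci that share several names, which touched 4 genes. The locus of Cyp2d22 also carries Ndufa6, a subunit of respiratory complex I. It read 247 FPKM in liver, 198 in kidney, 66.0 in VAT, 47.5 in SCAT, 443 in BAT, 60.0 in cortex and 308 in muscle. The locus on the other strand that carries only Cyp2d22 read 20.5 FPKM in liver and between 1.39 and 5.82 in the other 6 tissues. The level of Cyp2d22 can therefore not be read from the joint locus. Cyp4a31 and Cyp4a32 share a locus with Cyp4a10, and Cyp4v3 one with Klkb1 (plasma prekallikrein) and Gm45753.

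Of the 59 genes of families 1 to 3, 25 (42.4%) were enriched in liver, as were 6 of the 35 genes of the other families (17.1%). Cyp2e1, which oxidises ethanol, acetone and other small molecules, was at 4606 FPKM in liver, 331 in kidney, 295 in VAT, 68.2 in SCAT, 11.5 in BAT, 9.96 in muscle and 0.553 in cortex. It was the highest P450 gene of liver, VAT and SCAT, and its liver level was 3.80 above kidney on the log2 scale. Cyp3a11, which oxidises many drugs and steroids, was at 793 FPKM in liver, 8.63 in VAT and 0.300 or less in the other 5 tissues. Cyp2c50 of the Cyp2c subfamily was at 598 FPKM in liver, 3.98 in VAT and 0.474 or less elsewhere. For both genes VAT was the next tissue, far below liver. Both were read from the strand opposite to the annotation, and on the annotated strand Cyp3a11 was at 407 FPKM in liver and 3.80 in VAT, and Cyp2c50 at 227 FPKM in liver and 2.00 in VAT.

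The 31 liver-enriched genes had a median liver level of 132 FPKM (1.14 to 4606) and led the next tissue by a median of 5.70 on the log2 scale (2.76 to 7.51). Both medians are the values of Cyp2d40, read from the strand opposite to the annotation. On the annotated strand Cyp2d40 read 27.1 FPKM in liver, with a log2 ratio of 6.12. The 10 liver-enriched genes with the largest ratio were members of the Cyp2a, Cyp2c, Cyp2d and Cyp3a subfamilies, which act on drugs, steroids and fatty acids. Cyp2c54 (log2 ratio 7.51), Cyp3a25 (7.32), Cyp2c50 (7.20), Cyp2c67 (7.19) and Cyp2c37 (7.06) led, followed by Cyp2a12 (7.06), Cyp2d10 (7.04), Cyp3a13 (6.96), Cyp2c68 (6.56) and Cyp3a11 (6.51). Cyp2c54, Cyp2c50, Cyp2c67, Cyp2c37 and Cyp3a11 were read from the strand opposite to the annotation, and their order depends on it. On annotated strands, an alternative chosen after seeing the data, the same 10 genes had the largest ratios, with Cyp2c54 (7.49), Cyp3a25 (7.32), Cyp2a12 (7.06) and Cyp2d10 (7.04) first and Cyp2c50 and Cyp2c37 at 6.76 each. VAT was the next tissue for all 10. Their liver levels ranged from 73.7 FPKM (Cyp2c68) to 793 FPKM (Cyp3a11), and their VAT levels from 0.571 FPKM (Cyp3a13) to 8.63 FPKM (Cyp3a11). Just inside the threshold lay Cyp2d9 (log2 ratio 2.76) and Cyp39a1 (2.88), and just outside it Cyp4a10 (1.85) and Cyp27a1 (1.83).

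Most of these subfamilies lie in tandem clusters, where genes of the same subfamily follow each other on a chromosome. The Cyp2c cluster (chr19:39007019-40187333, GRCm38) holds 14 of the genes, 10 of which were enriched in liver. The 4 that were not, Cyp2c55, Cyp2c65, Cyp2c66 and Cyp2c69, stayed below 1 FPKM in all tissues. Cyp2c44, which lies outside this cluster in its own locus on chromosome 19, was enriched in liver as well, with 81.3 FPKM there and 5.96 in kidney. In the Cyp3a cluster (chr5:145345279-146113287) Cyp3a11, Cyp3a25 and Cyp3a59 were liver-enriched, and Cyp3a16, Cyp3a44 and Cyp3a57 stayed below 1 FPKM. The Cyp2d cluster (chr15:82370527-82794294) was mixed, with Cyp2d9, Cyp2d10, Cyp2d26 and Cyp2d40 enriched in liver and Cyp2d12 in kidney.

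The Cyp2j cluster (chr4:96027534-96664154) showed no liver-enriched gene. Cyp2j5, which forms epoxides and alcohols from arachidonic acid, was at 220.5 FPKM in liver, 332 in kidney, 1.64 in VAT and 0.0976 or less in the other 4 tissues. Cyp2j11 was at 45.7 FPKM and Cyp2j13 at 55.6 FPKM in kidney, against 0.0281 and 0.0524 FPKM in liver. Cyp2j6 and Cyp2j9 reached 1 FPKM in every tissue, and Cyp2j6 ranged from 1.29 FPKM in muscle to 17.1 in liver. Cyp2j9 was highest in cortex (9.71 FPKM) and next in kidney (8.20), where it was only 0.24 lower on the log2 scale. Cyp2j7, Cyp2j8 and Cyp2j12 stayed below 1 FPKM, with Cyp2j12 highest in cortex (0.547 FPKM). Genes of this cluster thus differed in their highest tissue among kidney, liver and cortex.

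**Figure D3:**
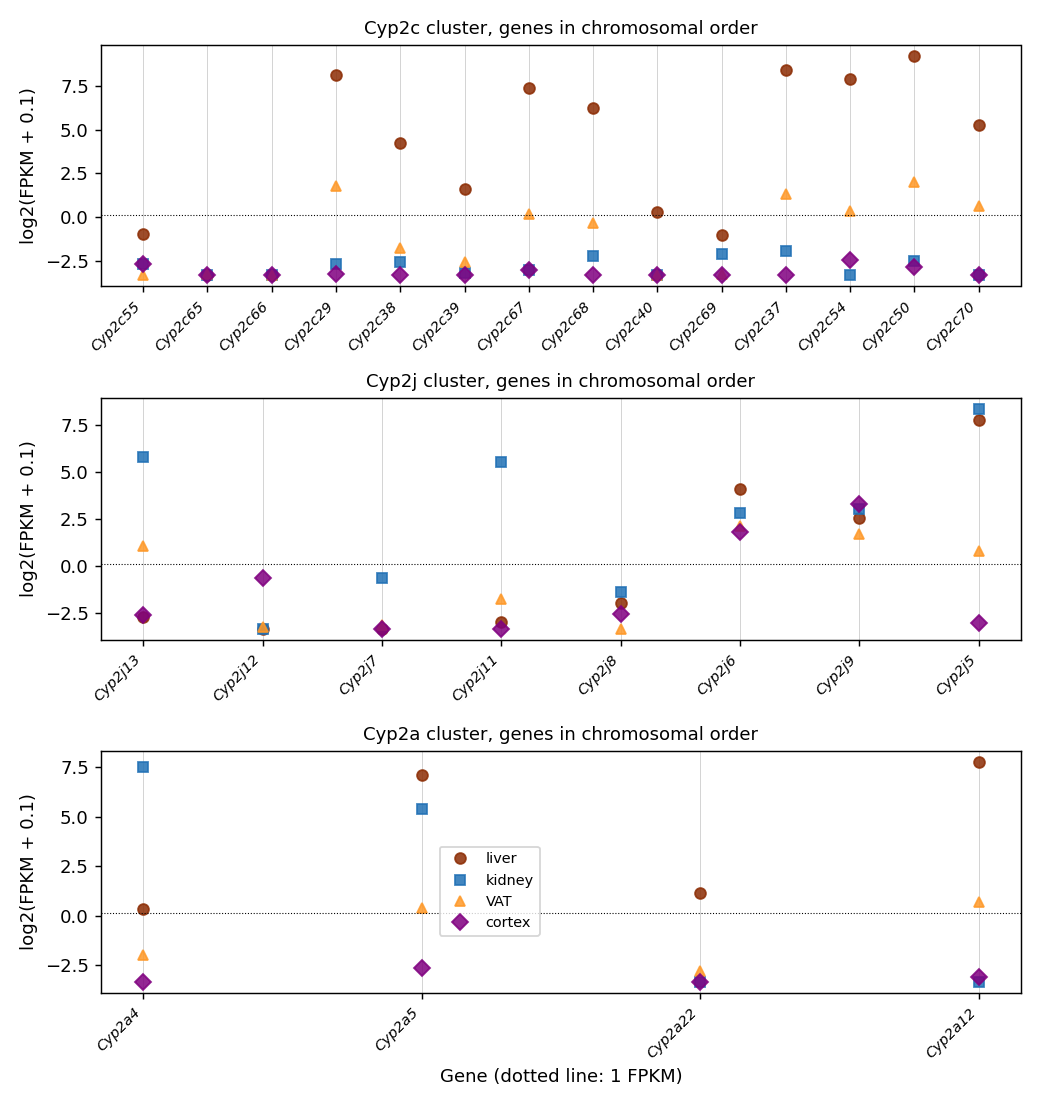
Levels as log2(FPKM + 0.1) of the genes of the Cyp2c, Cyp2j and Cyp2a clusters in chromosomal order, in liver (circles), kidney (squares), VAT (triangles) and cortex (diamonds), 1 library each, with a dotted line at 1 FPKM. In the Cyp2c cluster liver is the highest of these for the 10 genes above the line, and the genes of the Cyp2j and Cyp2a clusters do not all share a highest tissue.

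The Cyp2a cluster held a contrast between near-copies. Cyp2a4, a steroid hydroxylase, was at 1.19 FPKM in liver, 179 in kidney, 0.159 in VAT, 0.0235 in muscle and listed at 0 in the other 3 tissues. Cyp2a5, which hydroxylates coumarin and nicotine, was at 138 FPKM in liver, 42.2 in kidney, 1.22 in VAT and 0.0603 or less in the other 4. Cyp2a4 was thus highest in kidney and Cyp2a5 in liver, although their upstream sequences shown above differ at few positions. Their longest reading frames were 94.8% identical over 1542 aligned columns, gaps counted as differences, so reads may have been divided between them by the counting. Cyp2a12 was at 216 FPKM and Cyp2a22 at 2.11 FPKM in liver, and both were listed at 0 in kidney.

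Close copies are frequent among the P450 genes, which limits the levels of single genes. Of 64 genes with another member of their subfamily, 33 had one with at least 90% identity of the longest reading frame, and 16 had one with at least 95%. The closest were Cyp2c40 and Cyp2c69 (97.9%), Cyp3a25 and Cyp3a59 (97.5%), Cyp4a10 and Cyp4a32 (97.2%) and Cyp2c67 and Cyp2c68 (97.2%). Cyp2d9 and Cyp2d12, which were enriched in liver and kidney, were 92.1% identical. How the counting divided reads between such copies is not given in the sources used here, so their separate levels are uncertain.

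Liver and kidney, the tissues with the highest P450 sums, had 25 P450 genes at 1 FPKM or more in common, which is 78.1% of the 32 of kidney and 47.2% of the 53 of liver. The same overlap was not computed for all names, of which 12803 reached 1 FPKM in liver and 13163 in kidney. By the 4-fold rule 36 P450 genes were higher in liver than in kidney (2.73% of all names), and 8 were higher in kidney than in liver (3.09%). Over genes with at least 1 FPKM in either tissue, the median log2 difference of liver over kidney was 3.46 for the P450 genes and 0.05 for all names. The 36 included all 31 liver-enriched genes, with Cyp17a1, Cyp26a1, Cyp27a1, Cyp2u1 and Cyp46a1 in addition. The 8 kidney genes were Cyp1b1, Cyp24a1, Cyp2a4, Cyp2d12, Cyp2j11, Cyp2j13, Cyp2s1 and Cyp4b1. On annotated strands 34 and 7 of these calls were left, without Cyp26a1, Cyp2c44 (which has no annotation under its name) and Cyp1b1.

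Of these 8 genes, 6 were enriched in kidney over all other tissues. Cyp4b1, a fatty acid hydroxylase that also activates furans and aromatic amines, was at 11.2 FPKM in liver, 999 in kidney, 21.2 in VAT, 14.3 in SCAT, 96.6 in BAT, 4.40 in muscle and 0.221 in cortex. It was the highest P450 gene of kidney, and BAT was the next tissue at a log2 distance of 3.37. Cyp2d12 was at 41.4 FPKM in kidney, 0.635 in liver and 0.0286 or less elsewhere. Cyp24a1, which inactivates vitamin D, was at 5.67 FPKM in kidney, 0.00592 in VAT and listed at 0 in the other 5 tissues. The log2 ratios of Cyp2j11 (7.26) and Cyp2a4 (7.12) were the largest of the 6 kidney-enriched genes.

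**Figure D4:**
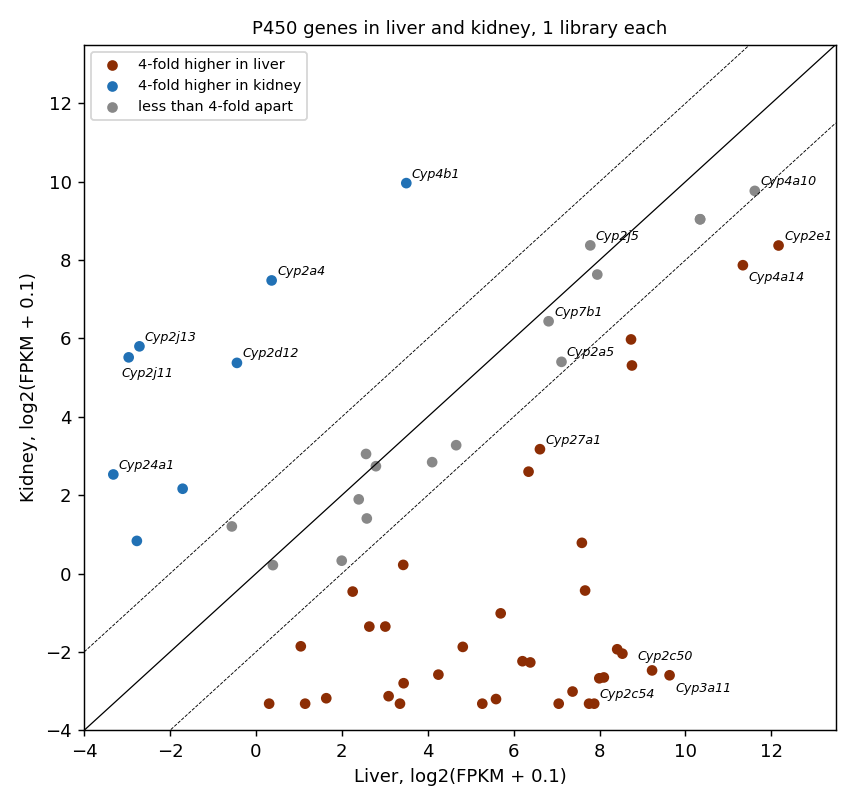
Kidney against liver level, as log2(FPKM + 0.1), of the P450 genes with at least 1 FPKM in either tissue (1 library each). The solid line marks equal levels and the dashed lines a 4-fold difference, with 36 genes 4-fold higher in liver (brown) and 8 in kidney (blue).

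The fatty acid hydroxylases of family 4 and Cyp2u1 spanned all tissues. Of 18 genes in this group, 15 reached 1 FPKM (38.1% of all names), with Cyp4a31 and Cyp4a32 both counted from 1 shared locus. Of the 18, 4 were enriched in liver (1.45% of all names), and 1 each in kidney (0.97%), SCAT (1.02%), cortex (3.17%) and muscle (1.38%). Cyp4a14 was at 2589 FPKM in liver, 234 in kidney and between 0.112 (cortex) and 1.89 (VAT) in the other 5 tissues. Cyp4a10, which hydroxylates the end carbon of fatty acids, was at 3139 FPKM in liver, 871 in kidney, 2.66 in VAT, 1.64 in BAT, 0.922 in muscle, 0.215 in cortex and 0.145 in SCAT. Both were far higher in liver and kidney than in the other 5 tissues, but only Cyp4a14 passed the 4-fold rule in liver. The Cyp4a10 value comes from a locus opposite to the annotated strand. The locus on the annotated strand, shared with Cyp4a31 and Cyp4a32, read 1298 FPKM in liver, 527 in kidney and 9.73 in BAT, and the 3 genes cannot be told apart in it.

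The Cyp4f genes divided by tissue. Cyp4f14 (28.1 FPKM in liver) and Cyp4f15 (51.8 FPKM in liver) were liver-enriched, and cortex was the next tissue for both (1.04 and 2.70 FPKM). Cyp4f18, known from white blood cells for inactivating leukotriene B, was at 5.46 FPKM in SCAT, 1.06 in VAT and 0.553 or less in the other 5 tissues. It was the only SCAT-enriched gene of the 94, in the library that also held the lymphocyte markers, whose part in it was not tested, and the call was lost with a pseudocount of 1 (log2 ratio 1.65) and at 10-fold. Cyp4f39, known for the very long fatty acids of skin, was at 2.47 FPKM in muscle and 0.161 or less in the other 6, and this muscle call too was lost with a pseudocount of 1 (log2 ratio 1.58). Cyp4f13, Cyp4f16 and Cyp4f17 were enriched nowhere, and Cyp4f13 ranged from 1.24 FPKM in cortex to 25.2 in liver. Cyp4f37 and Cyp4f40 stayed below 1 FPKM.

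Cyp4v3 read 192 FPKM in liver, 22.0 in VAT, 19.0 in BAT, 7.26 in SCAT, 1.62 in kidney, 1.25 in muscle and 1.07 in cortex at its shared locus with Klkb1. The highest locus with its name alone, on the other strand, read 37.0 FPKM in liver, 7.03 in VAT and 6.95 in BAT, and was also highest in liver. Cyp2u1, which hydroxylates long-chain fatty acids, was at 7.43 FPKM in BAT, 4.66 in liver, 1.37 in muscle and 0.627 or less in the other 4 tissues.

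Of the 7 cholesterol and bile acid enzymes, 3 were enriched in liver (1.45% of all names) and 1 in cortex, and the level of another, Cyp8b1, could not be read. Cyp7a1, the rate-limiting enzyme of bile acid synthesis, was at 10.1 FPKM in liver, 0.273 in VAT and 0.00336 or less in the other 5 tissues. This is the strand opposite to the annotation, and the annotated strand read 5.06 FPKM in liver and 0.128 in VAT. Cyp2c70, which makes the muricholic acids of mice, was at 38.5 FPKM in liver, 1.45 in VAT, 0.553 in BAT, 0.0402 in SCAT and listed at 0 in the other 3. Cyp39a1, which acts on a brain-derived oxysterol, was at 10.7 FPKM in liver and between 0.116 and 1.36 elsewhere. These 3 genes were the liver-enriched ones of the list.

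The other sterol hydroxylases had broader or other patterns. Cyp27a1, the mitochondrial sterol side-chain hydroxylase, was at 97.7 FPKM in liver, 27.4 in muscle, 19.4 in BAT, 11.4 in VAT, 8.92 in kidney, 4.68 in SCAT and 0.474 in cortex. It was the highest P450 gene with a locus of its own in muscle. Cyp7b1, the oxysterol hydroxylase of the acidic pathway, was at 112 FPKM in liver, 86.6 in kidney, 4.97 in cortex, 1.42 in VAT and 0.352 or less in the other 3, so that liver and kidney were 0.38 apart on the log2 scale. Cyp46a1, which starts the removal of cholesterol from the brain, was at 28.1 FPKM in cortex, 6.13 in liver and between 0.0919 and 0.440 in the other 5. Its value comes from the strand opposite to the annotation, and on the annotated strand it read 19.2 FPKM in cortex and 3.68 in liver. Cyp8b1, which sets the share of cholic acid, was at 0.544 FPKM in liver and 0.732 or less in every tissue at the locus with its name. A locus of the same bounds on the other strand, named Ackr2 (a chemokine receptor), read 105 FPKM in liver and 1.16 or less in the other 6 tissues, so the level of Cyp8b1 cannot be read from its name.

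Of the 6 steroid hormone enzymes 1, Cyp17a1, was at 1 FPKM or more in any tissue (38.1% of all names). Cyp17a1, which makes the precursors of androgens, was at 10.7 FPKM in liver, 4.86 in VAT and 0.0783 or less in the other 5 tissues. Cyp11a1, which starts steroid synthesis from cholesterol, reached 0.508 FPKM in SCAT and 0.316 in cortex and was at 0.0748 or less in the other 5. Cyp11b1, Cyp11b2, Cyp19a1 (aromatase) and Cyp21a1 were at 0.201 FPKM or less in every tissue. Of the markers of steroid-producing cells, Nr5a1 was at or below 0.0136 FPKM and Hsd3b1 at or below 0.0697 FPKM in all tissues. Star was between 1.37 and 2.30 FPKM in all 7 tissues.

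Vitamin D and retinoic acid enzymes were at or below 5.67 FPKM in all 7 tissues. Cyp2r1, which starts vitamin D activation, was at 3.89 FPKM in liver, 1.16 in kidney and 0.652 or less in the other 5 tissues. Cyp27b1, which completes activation in the kidney, was at 0.492 FPKM in kidney, below 1 FPKM, and 0.0382 or less elsewhere. Together with Cyp24a1, 1 of the 3 vitamin D genes was enriched in kidney (0.97% of all names). Cyp26a1, which breaks down retinoic acid, was at 1.96 FPKM in liver, 1.92 in VAT, 0.857 in cortex, 0.176 in kidney and 0.0351 or less in the other 3. Cyp26b1 was between 0.366 (BAT) and 1.91 FPKM (SCAT), and Cyp26c1 stayed at or below 0.276 FPKM. The values of all 3 come from the strand opposite to the annotation. On the annotated strand Cyp26a1 read 0.289 FPKM in liver and 0.333 in VAT, and Cyp26b1 at most 0.322 FPKM, in SCAT. None of the 3 retinoic acid genes was enriched in a tissue (8.76% of all names).

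The targets of the aryl hydrocarbon receptor differed from each other. Cyp1a2, which oxidises caffeine and aromatic amines, was at 48.1 FPKM in liver, 0.482 in VAT and 0.0386 or less in the other 5 tissues. Its neighbour Cyp1a1 stayed at or below 0.452 FPKM everywhere. Cyp1b1, which oxidises polycyclic hydrocarbons and oestradiol, was at 6.05 FPKM in SCAT, 5.87 in VAT, 4.38 in kidney, 1.80 in BAT and 0.813 or less in muscle, cortex and liver. These Cyp1b1 values come from the strand opposite to the annotation, and on the annotated strand it read 0.717 FPKM in SCAT, 0.708 in VAT and less in the other 5 tissues. The receptor gene Ahr was at 10.3 FPKM in liver and between 1.17 and 3.02 in the other 6 tissues.

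Genes known to differ between the sexes of mouse liver were also followed, in libraries whose Y-linked genes were all expressed. Of the male-biased genes, Cyp2d9, a testosterone hydroxylase, was at 426 FPKM in liver and 62.8 in kidney. Cyp4a12a and Cyp4a12b, which lie outside the 94 genes, were at 59.8 and 28.3 FPKM in liver. Of the 7 female-biased genes, 1 was enriched in liver (1.45% of all names), Cyp2b9 with 7.96 FPKM there and 0.422 or less elsewhere. Cyp2a4 was the kidney gene described above, with 1.19 FPKM in liver. Cyp2b13, Cyp3a16, Cyp3a41a, Cyp3a41b and Cyp3a44 were at or below 0.469 FPKM in liver.

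The adipose depots differed in their P450 genes. Between VAT and SCAT, 21 P450 genes were 4-fold higher in VAT (1.83% of all names) and 1, Cyp4f18, in SCAT (1.5%). Of the 21 genes, 15 (71.4%) were liver-enriched, which is 48.4% of the 31 liver-enriched genes. The same shares were not computed for all names, which leaves them without a background. Apart from Cyp2e1 (295 FPKM), the 21 genes were at 8.63 FPKM or less in VAT. With a minimum of 5 FPKM 2 of the 21 calls were left, as were 5 with a pseudocount of 1. The 6 of the 21 that were not liver-enriched were Cyp17a1, Cyp26a1, Cyp2a5, Cyp2j13, Cyp2j5 and Cyp4a10. On annotated strands, an alternative chosen after seeing the data, 16 of the 21 calls were left, without Cyp26a1, Cyp2c54, Cyp2c67, Cyp2d40 and Cyp4a10. The annotated-strand locus of Cyp4a10, shared with Cyp4a31 and Cyp4a32, read 4.04 FPKM in VAT and 3.04 in SCAT. The Cyp4f18 call was lost with a pseudocount of 1.

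Liver transcripts as a whole were seen at a low level in VAT. For the 216 liver-enriched names with at least 100 FPKM in liver, the VAT level was a median of 1.06% of the liver level (5th to 95th percentile 0.471% to 14.0%). The same median was 0.441% in kidney, 0.0926% in muscle, 0.0808% in SCAT, 0.0782% in BAT and 0.0455% in cortex. The 16 P450 genes among them had a median of 0.711% in VAT, and 10 of the 16 lay below the median of all names. The highest were Cyp4v3 (11.4%, at its locus shared with Klkb1) and Cyp2e1 (6.41%), and the lowest was Cyp4a14 (0.0730%). The other 13 lay between 0.507% and 1.85%. The highest Cyp4v3 locus with its name alone read 37.0 FPKM in liver, below the minimum of 100 FPKM. Among genes with at least 100 FPKM in liver that were not liver-enriched, Cyp7b1 in VAT was at 1.26% of its liver level, Cyp2a5 at 0.884%, Cyp2j5 at 0.746% and Cyp4a10 at 0.0846%, and the joint loci read 0.311% (Cyp4a31 and Cyp4a32) and 26.7% (Cyp2d22). Whether liver RNA contributed to the VAT library was not tested.

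**Figure D5:**
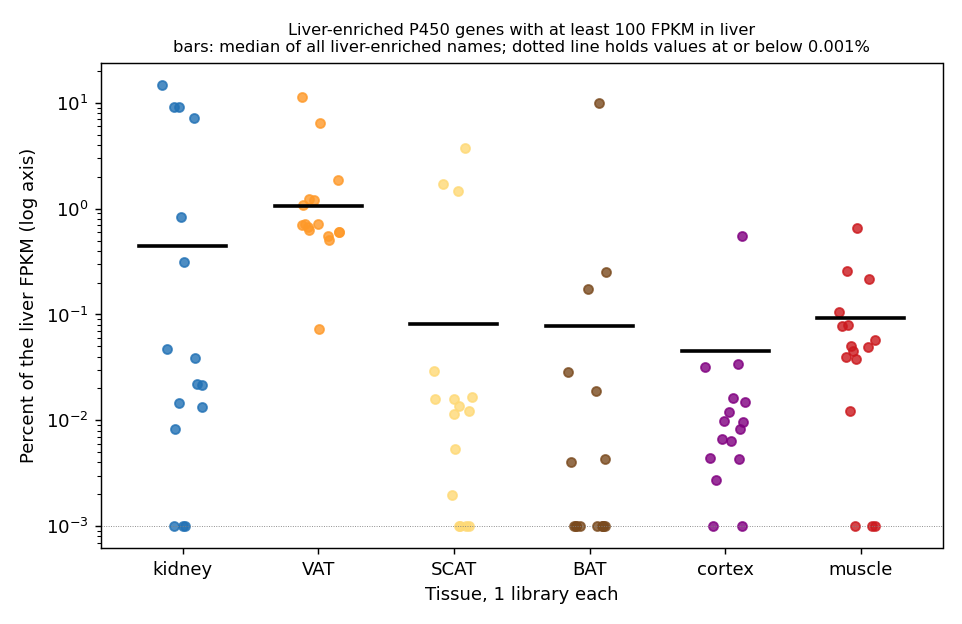
Level of the 16 liver-enriched P450 genes with at least 100 FPKM in liver in each other tissue, as a percent of their liver level on a log axis (1 library each). Points are genes, black bars are the median of all 216 such names, and points on the dotted line are at or below 0.001%. In VAT 10 of the 16 genes lie below the bar of 1.06%, with Cyp4v3 (at its locus shared with Klkb1) and Cyp2e1 the highest and Cyp4a14 the lowest.

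In BAT 1 of the 94 P450 genes was enriched (0.297% of all names). Cyp2b10, a target of the receptor CAR that oxidises drugs, was at 6.27 FPKM in BAT, 0.306 in kidney, 0.278 in VAT and 0.0646 or less in the other 4 tissues. This was the gene enriched in BAT, and its locus on the annotated strand read 5.68 FPKM in BAT and 0.274 in VAT, the next tissue. Against VAT, 4 P450 genes were 4-fold higher in BAT (2.85% of all names), Cyp2b10, Cyp2d22, Cyp2u1 and Cyp4b1, and 20 were higher in VAT (2.3%). Liver-enriched were 14 of the 20, a share that was not computed for all names. Of these 20 calls, 5 were left with a pseudocount of 1, 2 with a minimum of 5 FPKM and 16 on annotated strands. Against SCAT, 7 were higher in BAT (4.33%), which added Cyp27a1, Cyp2j6 and Cyp4a10, and 4 were higher in SCAT (2.27%). With a pseudocount of 1 or with median-ratio size factors, 4 were higher in BAT. The Cyp2d22 call rests on the locus shared with Ndufa6, and the Cyp4a10 call was lost on the annotated strand, where the shared locus read 9.73 FPKM in BAT and 3.04 in SCAT. The 4 SCAT genes became 3 on annotated strands, without Cyp26b1, and 2 with a pseudocount of 1 or a minimum of 5 FPKM.

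Cortex had 12 P450 genes at 1 FPKM or more, and 2 of them, Cyp46a1 and Cyp4x1, were enriched there. Cyp4x1, known from brain, was at 3.58 FPKM in cortex, 0.110 in VAT, 0.0132 or less in liver and kidney, and listed at 0 in SCAT, BAT and muscle. Summing the 4 loci of Cyp46a1 left it below the 4-fold threshold. In muscle, leaving aside the locus shared by Cyp2d22, Cyp27a1 led with 27.4 FPKM, followed by Cyp2e1 (9.96), Cyp2t4 (8.89) and Cyp20a1 (6.09).

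Of all 50226 gene names, 8881 were above 1 FPKM in all 7 tissues. Of the 94 P450 genes, 7 reached 1 FPKM in all 7 tissues, Cyp20a1, Cyp2d22, Cyp2j6, Cyp2j9, Cyp2t4, Cyp4f13 and Cyp4v3. Cyp4v3 did so only at its shared locus, since the highest locus with its name alone read 0.467 FPKM in kidney, 0.469 in cortex and 0.479 in muscle. Cyp20a1, whose substrate is not known, had the flattest profile of those with a locus of their own, from 3.70 FPKM in cortex to 8.62 in BAT. Cyp2t4 ranged from 2.83 FPKM in SCAT to 8.89 in muscle.

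Of the 8 electron donor genes of the P450 enzymes, 1 was enriched in liver, beside 1.45% of all names. It was Pgrmc1, a haem-binding partner with 315 FPKM in liver and 57.2 in cortex. Por, the reductase that supplies P450 enzymes of the endoplasmic reticulum, was at 66.1 FPKM in liver, 34.5 in BAT, 32.1 in kidney, 15.4 in VAT, 12.4 in SCAT, 5.63 in muscle and 4.67 in cortex. Cyb5a, which can donate the second electron, was at 523 FPKM in liver, 189 in kidney and between 10.4 and 87.4 in the other 5.

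Of the 9 haem synthesis genes, 0 were enriched in a tissue, a count near the 8.76% of all names. Alas1, the rate-limiting enzyme of haem synthesis, was at 504 FPKM in liver, 159 in BAT, 108 in muscle, 73.0 in kidney, 54.8 in VAT, 26.9 in SCAT and 16.7 in cortex. Of the 9 regulators, 3 were enriched in liver, beside 1.45% of all names. They were the drug sensors Nr1i2 (PXR), with 11.9 FPKM in liver and 0.554 in kidney, and Nr1i3 (CAR), with 136 FPKM in liver and 10.5 in BAT, and Nr0b2 (SHP), a repressor of bile acid synthesis, with 4.75 FPKM in liver and 0.0459 in kidney. Hnf4a was at 207 FPKM in liver and 159 in kidney, and Ppara, the receptor that drives Cyp4a genes, was at 73.9 FPKM in liver, 45.6 in BAT and 14.7 in kidney.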

How the data were processed

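The authors depleted rRNA and prepared the RNA-Seq libraries with a directional kit. According to the study's methods and the submitters' processing notes, adapters were removed with flexbar, rRNA reads with Bowtie2 2.2.9, and the remaining reads were aligned to GRCm38 with STAR 2.6.0c, assembled and merged, and compared with cuffdiff of Cufflinks 2.2.1. The authors deposited the FPKM of 94339 loci in 21 pairwise comparisons, and the deposited fold changes, test statistics, p-values and q-values of the same table were not used. Scaling and strand settings of cuffdiff are not given in the sources used here.

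Of the loci, 151 with status FAIL were dropped and zeros with status LOWDATA were set to missing, which touched no P450 locus. A name took the locus with the highest maximum FPKM. The strand of a locus was inferred from the listing order, and gene positions were taken from GENCODE M21 (GRCm38). Tissues were compared on log2(FPKM + 0.1), which understates the differences of low values, and with 1 library per tissue no test was run. Tandem clusters joined genes of a subfamily with at most 1 Mb between starts. Reading frames are the longest from ATG to stop in annotated protein-coding transcripts.

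The genes and lists were chosen with earlier results of these data known. Named are the 5 highest genes of each tissue, those enriched outside liver, the 10 largest liver ratios, the genes nearest the threshold, and all genes of the bile acid, steroid, vitamin D, retinoic acid, aryl hydrocarbon receptor and sex lists, with partner genes, and other genes were chosen after their values were seen. Alternatives covered the pseudocount, minimum, fold, scaling, loci and single libraries. Python 3.11.15, pandas 2.3.3, NumPy 2.4.6 and matplotlib 3.10.9 were used.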

Additional observations from a re-analysis of the deposited data

How the results depend on the processing

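No paired analysis was possible because each tissue has 1 library. The count of expressed P450 genes stayed within 1.5 times with a minimum of 0.5 or 5 FPKM and with the other locus choices, and the liver-enriched count with a minimum of 5 FPKM or none, with the other locus choices and without the VAT or SCAT library. Of 335 recomputed log2 ratios of the 42 enriched genes, 329 stayed at 2 or more and 6 fell below 2. Those 6 were Cyp2a22, Cyp2c39, Cyp2c40, Cyp4f18 and Cyp4f39 with a pseudocount of 1, and Cyp46a1 with its loci summed. Many of the 335 could not fall, so the tally overstates stability. Keeping FAIL loci or LOWDATA zeros touched no P450 locus, here or in the counts above, and a pseudocount of 0.01 can only raise these ratios. On the annotated strand 30 of the 31 liver-enriched genes were called (Cyp2c44 has no annotation under its name), an alternative chosen after seeing the data.

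With a pseudocount of 1, the enriched count fell to 0 in SCAT and 0 in muscle, and the 4-fold counts became 5 for VAT over SCAT, 0 for SCAT over VAT, 5 for VAT over BAT, 4 for BAT over SCAT and 2 for SCAT over BAT. With a minimum of 5 FPKM, cortex had 1 enriched gene and muscle 0, with 2 genes for VAT over SCAT, 2 for VAT over BAT and 2 for SCAT over BAT. At 10-fold, SCAT and muscle had 0 and cortex 1. At 2-fold, SCAT over VAT had 2 genes, BAT over VAT 8 and BAT over SCAT 12. With median-ratio size factors, BAT over SCAT had 4, and these factors shifted all log2 values by between -0.38 (muscle) and 0.49 (SCAT).

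Over the highest locus of each name, with shared loci included and counted once, the P450 sum was 662 FPKM in BAT, 389 in muscle and 131 in cortex. Cyp2d gave 67.0%, 79.2% and 45.7% of these sums through the locus shared with Ndufa6. Over single-name loci the sums were 203, 82.2 and 72.1 FPKM and the Cyp2d shares 2.89%, 3.25% and 2.04%. On annotated strands Cyp4a gave 23.5% of the kidney sum, against 39.6% over the highest locus of each name.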

Other observations

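Among the 30 P450 genes below 1 FPKM in every tissue, 5 reached 0.5 FPKM somewhere. They were Cyp8b1 (0.732 FPKM in muscle), Cyp2ab1 (0.588 FPKM in VAT), Cyp2j12 (0.547 FPKM in cortex), Cyp2j7 (0.538 FPKM in kidney) and Cyp11a1 (0.508 FPKM in SCAT). The Cyp8b1 level cannot be read from its name, as described above. Of the 38 P450 genes at 1 FPKM or more in VAT, 17 were liver-enriched, as were 7 of 32 in kidney, 5 of 17 in muscle, 3 of 12 in cortex, 3 of 18 in SCAT and 2 of 18 in BAT. Among all names at 1 FPKM or more, the liver-enriched share was 2.35% in VAT, 1.79% in kidney, 1.33% in muscle, 1.28% in BAT, 1.24% in SCAT and 1.13% in cortex.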
